A study of Mus musculus with 7 samples.

Results

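Aminoacyl-tRNA synthetases are the enzymes that join each amino acid to its transfer RNA, and mammalian cells hold separate cytosolic and mitochondrial sets of them. Their transcripts were followed in white fat of the epididymal pad, which lies beside the testis, from wild type and aP2-XBP1 transgenic mice. The members were fixed by name as 20 cytosolic and 16 mitochondrial synthetases, and each was read from the probe set that the platform table pairs with exactly 1 gene symbol, taking the row of highest mean where a gene had several. Of these 36 genes 34 were measured, 18 cytosolic and 16 mitochondrial, among 19938 genes in all. No row met the rule for Aars and Dars, which were not analysed here.

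Both groups were males of the strain C57Bl/6J, 17 weeks old and on chow. Wild type mice gave 4 libraries, the controls, and mice with the aP2-XBP1 transgene gave 3. In that transgene the promoter of aP2 (Fabp4, a fatty acid carrier of adipocytes that macrophages also make) drives XBP1, which activates genes of the unfolded protein response. Each library was hybridised to its own 1-colour Affymetrix array, and values are log2 expression after RMA, the authors' background correction, normalization and summary of probes. The labels number the samples without naming separate animals, so every p-value refers to the spread among the 7 samples, part of which may be technical. Precision is limited by how few arrays there are. In a whole fat pad, fewer cells of a type and less RNA per cell cannot be told apart.

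Xbp1 read 8.90, 9.07, 8.94 and 9.19 in wild type replicates 1 to 4 and 9.76, 9.99 and 9.66 in transgenic replicates 1 to 3, so the groups did not overlap. As a check of the labelled tissue, the 9 measured adipocyte markers, such as Adipoq and Plin1, had gene means from 8.85 to 12.2. The libraries also differed in markers of neighbouring organs. Of 7 measured epididymis markers, 3 that earlier results had singled out, Serpina1f, Spink8 and Defb42, had a mean of 9.31, 9.38 and 10.05 in wild type replicates 1, 3 and 4 and 2.57 to 3.10 in the other 4 libraries. The other 4 markers, Lcn5, Lcn8, Rnase10 and Adam7, did not follow them, with values from 1.97 to 4.69 and higher transgenic means. The mean of 8 sperm markers was 7.30 in wild type replicate 4 and 2.94 to 3.26 elsewhere, and that of 6 seminal vesicle markers was 6.85 in wild type replicate 2, 3.60 in transgenic replicate 3 and 2.24 to 2.42 elsewhere. Results that turn on these libraries are therefore also given against wild type replicate 2 alone, as differences without a test since that control arm is 1 library, or without it.

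The cytosolic enzymes supply charged tRNA to the ribosomes of the cytosol and of the endoplasmic reticulum, where secreted proteins such as adiponectin are made. Several of them are known targets of ATF4, the transcription factor that answers amino acid shortage and the PERK arm of the unfolded protein response. The mitochondrial enzymes are made from nuclear genes, imported, and serve the translation of the few respiratory chain subunits that mitochondrial DNA encodes. Gars and Kars each make both the cytosolic and the mitochondrial enzyme from a single gene, and mitochondria charge glutaminyl-tRNA through Ears2 and an amidation step.

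Fixed letter motifs were searched on both strands of RefSeq promoter windows (GRCm38.p6), which run from 250 bases before to 50 bases after a gene's start. Windows were found for 25 of the 34 measured members, 11 cytosolic genes with 11 windows and 14 mitochondrial genes with 15 windows. The core of the ATF4 response element, TGATGNAA, was present in 4 of 11 cytosolic and 0 of 15 mitochondrial windows, against 3.97% of 32851 windows in all. The 4 sites are shown because this was the motif whose share of windows differed most between the classes. Each is 30 bases on the gene's own strand, 5′ to 3′, with the motif or its reverse complement in capitals. The Gars site is at chr6:55037960-55037989 on the plus strand, and the Iars site is at chr13:49682126-49682155 on the plus strand. The Tars site is at chr15:11399655-11399684 on the minus strand, and the Yars site is at chr4:129189895-129189924 on the plus strand. The capitals begin 30 bases before the start in Gars and 15 before it in Tars, and at base 8 after the start in Iars and base 4 in Yars.
Gars: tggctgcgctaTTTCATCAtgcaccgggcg
Iars: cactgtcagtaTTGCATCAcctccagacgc
Tars: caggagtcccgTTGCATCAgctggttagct
Yars: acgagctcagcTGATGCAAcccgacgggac

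The core of the NRF1 motif (GCGCA, any base, then GCGC) was searched because NRF1 is a known regulator of nuclear genes for mitochondrial proteins. It was in 3 of 11 cytosolic windows (Farsb, Kars and Tars) and in 2 of 15 mitochondrial windows (Iars2 and Mars2), against 4.60% of all windows. Kars and Iars2 are shown as an example of each class, with the motif's reverse complement in capitals, since both matches lie on the strand opposite to the gene's. The Kars site is at chr8:112011384-112011413 on the minus strand and the Iars2 site at chr1:185329374-185329403 on the minus strand.
Kars: gcccagcactGCGCCTGCGCagcgagagtc
Iars2: ccgccccggaGCGCGTGCGCagttcctcgc

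Of the other motifs, the ETS core CCGGAAG was in 5 of 11 cytosolic and 4 of 15 mitochondrial windows, against 8.86% of all. The E-box CACGTG was in 3 cytosolic windows and 1 mitochondrial window, against 7.15%. The XBP1 element core TGACGTGG and the ER stress element (CCAAT and CCACG with 9 bases between) were in 0 windows of either class, against 0.676% and 0.119% of all. In the members' windows, 0 of 10 pairs of matches of different motifs shared bases. A match is a description of letters in a window and shows no binding.

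No single synthetase passed the test between transgenic and wild type fat, which does not show that their levels were equal. With limma and Benjamini-Hochberg adjustment over 21789 probe sets, 0 of 18 cytosolic and 0 of 16 mitochondrial members passed an adjusted p of 0.05 in either direction, as for 0 of all probe sets. Without wild type replicate 2, 0 members passed either, while 7 of all probe sets (0.0321%) were higher and 84 (0.386%) lower. At an unadjusted p under 0.05, limma gave 2 cytosolic members lower in transgenic fat (Wars and Iars) against 3.12% of all probe sets. It gave 1 mitochondrial member higher (Lars2) against 4.82%.

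Most mitochondrial members read slightly higher in transgenic fat, while most cytosolic members lay close to 0, a description for which no test was made. The difference, transgenic minus wild type on the log2 scale, was above 0 for 14 of 16 mitochondrial members and 8 of 18 cytosolic members, against 53.0% of all probe sets. It was below 0 for 2 and 10 members, against 46.4% of all. It was above 0.1 for 12 mitochondrial and 0 cytosolic members, against 23.0% of all, and below -0.1 for 0 mitochondrial and 3 cytosolic members, against 20.2%. The median difference was 0.16 for the mitochondrial enzymes, -0.003 for the cytosolic enzymes and 0.01 over all probe sets. Within 0.1 of 0 lay 15 of 18 cytosolic and 4 of 16 mitochondrial members. The cytosolic balance of signs depends on the scaling. After arrays were shifted to a common median, 13 of 18 cytosolic and 16 of 16 mitochondrial members lay above 0. Under the same shift 67.1% of all probe sets did so.

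**Figure D1:**
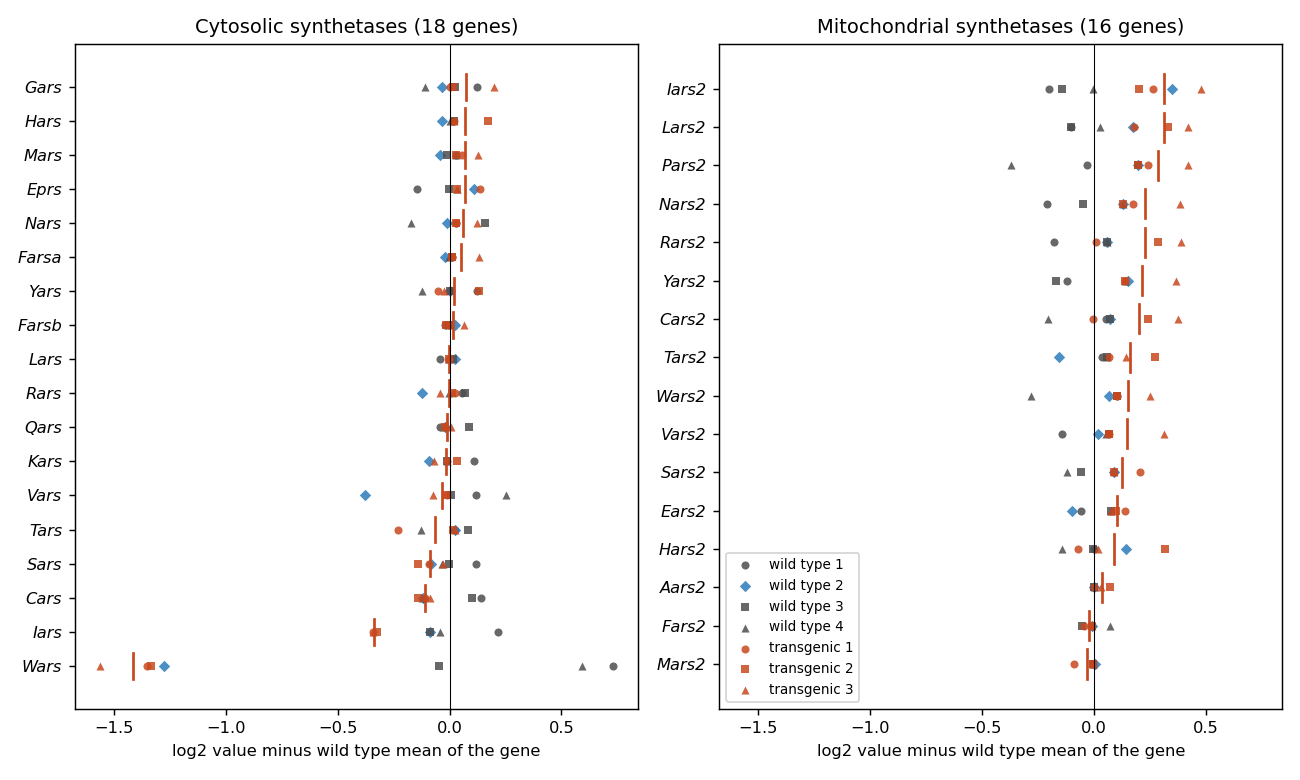
Log2 value of each measured synthetase in each of the 7 libraries, minus the wild type mean of that gene; symbols are libraries and the red bar is the transgenic mean. Most cytosolic transgenic means lie within 0.1 of 0, and those of Wars and Iars lie furthest to the left. Of the mitochondrial transgenic means, 14 of 16 lie to the right of 0.

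The mean log2 value over the 18 cytosolic genes was 7.47, 7.26, 7.40 and 7.39 in wild type replicates 1 to 4 and 7.27, 7.30 and 7.30 in transgenic replicates 1 to 3. Wild type replicates 1, 3 and 4 were the high libraries, and wild type replicate 2 lay below every transgenic library. Without Wars and Iars, left out after their values were seen, the other 16 genes gave 7.35, 7.26, 7.34 and 7.28 in wild type and 7.29, 7.32 and 7.33 in transgenic fat. All 3 transgenic libraries then lay within the range of the wild type libraries.

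The mean over the 16 mitochondrial genes was 5.09, 5.21, 5.14 and 5.11 in wild type replicates 1 to 4 and 5.22, 5.30 and 5.37 in transgenic replicates 1 to 3. The groups did not overlap, but wild type replicate 2 and transgenic replicate 1 were only 0.01 apart as printed. Of the 16 genes 9 had their highest value in transgenic replicate 3, and 0 had it in wild type replicate 1 or 3. The cytosolic mean minus the mitochondrial mean averaged 2.24 ± 0.14 over wild type (SD, n = 4) and 1.99 ± 0.06 over transgenic libraries (SD, n = 3), a difference of -0.25. Against wild type replicate 2 alone that difference was -0.06, and the median difference of the mitochondrial class was 0.09. In that comparison 12 of 16 mitochondrial members lay above 0, against 51.6% of all probe sets.

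**Figure D2:**
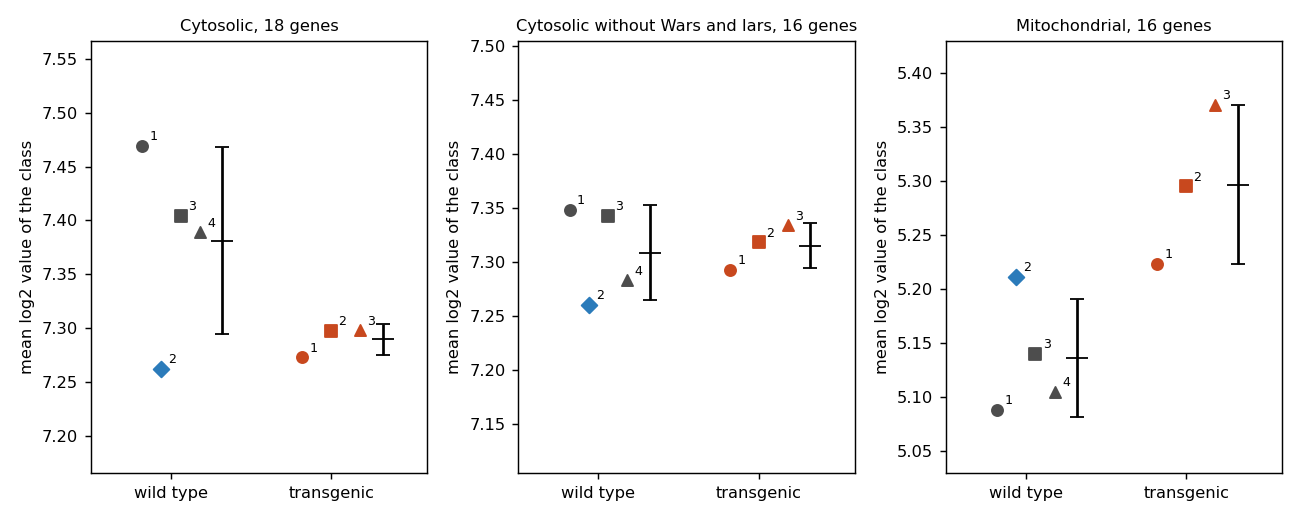
Mean log2 value of the class in each library, for all 18 cytosolic genes, for the 16 other than Wars and Iars, and for the 16 mitochondrial genes; numbers are replicates, bars are mean and SD (n = 4 and n = 3), and each panel spans the same range of 0.4. Without Wars and Iars the transgenic libraries lie within the wild type range, and wild type replicate 2 lies nearest to the transgenic libraries in the mitochondrial panel.

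Wars, the cytosolic tryptophanyl-tRNA synthetase, which interferon-gamma is known to induce, had the largest difference of any member. It read 9.72, 7.71, 8.94 and 9.58 in wild type replicates 1 to 4 and 7.64, 7.65 and 7.43 in transgenic replicates 1 to 3. Wild type replicates 1, 3 and 4 were high and wild type replicate 2 lay only just above the transgenic libraries, so the groups did not overlap. The wild type mean was 2.67-fold the transgenic mean (log2 difference -1.41, SE 0.48; limma adjusted p = 0.622, exact two-sided permutation p = 0.0571). The smallest p that 35 splits of 4 and 3 libraries allow is 0.0286. Without wild type replicate 2 the log2 difference was -1.84 (limma adjusted p = 0.0578). Under the other alternatives with more than 1 control library the limma adjusted p was 0.189 to 0.817. Against wild type replicate 2 alone the difference was -0.14.

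The wild type SD of Wars was 0.92, and 1.61% of probe sets had a larger one. The 3 libraries with high Wars were those with high Serpina1f, Spink8 and Defb42, but not high Lcn5, Lcn8, Rnase10 or Adam7. Of 8 smooth muscle markers all had a lower transgenic mean, against 46.4% of all probe sets. Their list mean was 8.95 to 9.47 in the same 3 libraries and 6.41 to 7.01 in the other 4. The part of either marker list in the Wars values was not tested.

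Interferon-gamma response genes were measured beside Wars, and their part in its values was not tested. Their mean over 12 measured genes was 6.95 in wild type replicate 1, 5.75, 5.83 and 5.24 in wild type replicates 2 to 4, and 5.56 to 5.68 in transgenic fat. Wild type replicate 1 stood high and wild type replicate 4 was the lowest. Of the 12 genes 11 had a lower transgenic mean, against 46.4% of all probe sets, and 0 passed an adjusted p of 0.05 with limma (0 at an unadjusted p under 0.05). The median difference was -0.25. Against wild type replicate 2 alone it was -0.04, with 10 genes lower and 2 higher, where 51.6% of all probe sets were higher. Irgm1, an interferon-induced GTPase, read 7.37 in wild type replicate 1, 5.64 to 5.66 in the other wild type libraries and 5.29 to 5.60 in transgenic fat. Iigp1, another such GTPase, read 5.41 to 8.35 in wild type and 5.003 to 5.96 in transgenic fat.

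**Figure D3:**
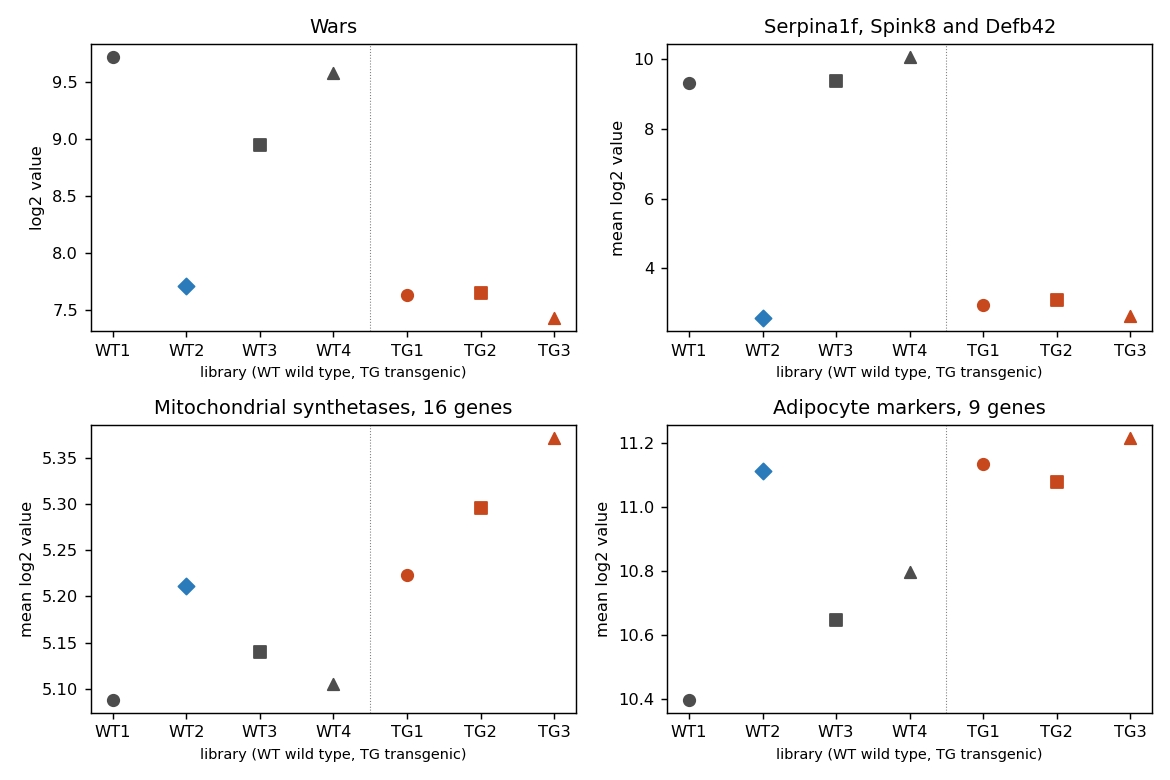
Log2 value of Wars, and mean log2 value of Serpina1f, Spink8 and Defb42 (3 of 7 measured epididymis markers), of the 16 mitochondrial synthetases and of 9 adipocyte markers, in each of the 7 libraries (WT wild type, TG transgenic; axes differ). Wars and these 3 genes are high in wild type replicates 1, 3 and 4, where the other 2 measures are lowest.

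Iars, the cytosolic isoleucyl-tRNA synthetase and a part of the multi-synthetase complex, read 7.15, 6.85, 6.85 and 6.89 in wild type replicates 1 to 4 and 6.59, 6.61 and 6.59 in transgenic replicates 1 to 3. All transgenic libraries lay below all wild type libraries, wild type replicate 2 included. The log2 difference was -0.34 (SE 0.08; limma adjusted p = 0.622, exact permutation p = 0.0286, the smallest possible). It was -0.25 against wild type replicate 2 alone. A second, dimmer probe set of Iars differed by -0.18 (SE 0.11), with overlapping groups. Members with groups that do not overlap numbered 2 of 18 cytosolic genes on the lower side and 0 on the higher, against 2.44% and 3.38% of all probe sets.

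Cars, the cysteinyl-tRNA synthetase, had the third lowest difference of the cytosolic class, at -0.11. It read 6.69, 6.43, 6.65 and 6.42 in wild type and 6.44, 6.40 and 6.46 in transgenic fat, with overlap. Wild type replicates 1 and 3 were the high libraries. The 6 other measured members of the multi-synthetase complex, a particle that gathers several cytosolic synthetases, lay between -0.02 and 0.07. These were Eprs, which charges both glutamate and proline, Kars, Lars, Mars, Qars and Rars.

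At the other end of the cytosolic class the differences were small. Gars, the glycyl-tRNA synthetase, read 7.88, 7.73, 7.78 and 7.65 in wild type and 7.76, 7.78 and 7.96 in transgenic fat, a difference of 0.07 (SE 0.08). Hars, the histidyl-tRNA synthetase, read 6.50 to 6.56 in wild type and 6.56, 6.71 and 6.56 in transgenic fat, a difference of 0.07 (SE 0.05). Mars, the methionyl-tRNA synthetase that also charges the initiator tRNA, read 7.07 to 7.15 in wild type and 7.17, 7.15 and 7.24 in transgenic fat, a difference of 0.07 (SE 0.04). In Gars the groups overlapped, and in Hars and Mars the lowest transgenic value equalled the highest wild type value. Farsa and Farsb, the subunits of the phenylalanyl-tRNA synthetase, differed by 0.05 and 0.02. The remaining cytosolic members, Nars, Sars, Tars, Vars and Yars, lay between -0.09 (Sars) and 0.06 (Nars).

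Among the mitochondrial enzymes Lars2, the leucyl-tRNA synthetase, read 5.01, 5.29, 5.01 and 5.14 in wild type replicates 1 to 4 and 5.29, 5.45 and 5.53 in transgenic replicates 1 to 3. The groups did not overlap, with wild type replicate 2 and transgenic replicate 1 alike to 2 decimals. The log2 difference was 0.31 (SE 0.09; limma adjusted p = 0.622, exact permutation p = 0.0571), a 1.24-fold higher mean in transgenic fat. Against wild type replicate 2 alone it was 0.13.

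Tars2, the threonyl-tRNA synthetase, read 6.38, 6.19, 6.41 and 6.41 in wild type and 6.42, 6.62 and 6.49 in transgenic fat. Here wild type replicate 2 was the lowest library, and transgenic replicate 1 lay 0.01 above the highest wild type value. The log2 difference was 0.16 (SE 0.08; limma adjusted p = 0.638, exact permutation p = 0.0286). It was 0.32 against wild type replicate 2 alone and 0.11 without it. With Lars2 it made 2 of 16 mitochondrial members whose groups do not overlap on the higher side (3.38% of all probe sets), and 0 did so on the lower side. After arrays were shifted to a common median that count was 10 of 16, against 20.1% of all probe sets under the same shift.

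Iars2, the isoleucyl-tRNA synthetase, had the highest difference of the class, 0.31 (SE 0.15), but its groups overlapped. It read 6.77, 7.31, 6.83 and 6.96 in wild type and 7.23, 7.17 and 7.45 in transgenic fat, so that wild type replicate 2 lay above 2 of the 3 transgenic libraries. Against that library alone the difference was -0.03. Pars2, the prolyl-tRNA synthetase, read 3.42, 3.65, 3.65 and 3.08 in wild type and 3.70, 3.65 and 3.87 in transgenic fat, a difference of 0.29 (SE 0.15). Wild type replicate 4 was its low library.

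Between 0.20 and 0.23 lay Nars2, Rars2, Yars2 and Cars2, the asparaginyl-, arginyl-, tyrosyl- and cysteinyl-tRNA synthetases. Each of them was highest in transgenic replicate 3. Wars2, Vars2, Sars2, Ears2 and Hars2, for tryptophan, valine, serine, glutamate and histidine, lay between 0.09 (Hars2) and 0.15 (Wars2). The differences nearest to 0 were those of Aars2 (0.03), Fars2 (-0.02) and Mars2 (-0.03), for alanine, phenylalanine and methionine, and the last 2 turned to 0.02 and 0.01 after shifting to a common median. Aars2 read 4.26 in all 4 wild type libraries and 4.26, 4.34 and 4.30 in transgenic fat. Fars2 read 6.13, 6.13, 6.08 and 6.21 in wild type and 6.09, 6.13 and 6.13 in transgenic fat. Mars2 read 5.04 to 5.05 in wild type and 4.96, 5.04 and 5.04 in transgenic fat. Many such values were equal to 7 decimals between libraries: 24 of the 34 members had at least one pair of equal values, against 69.5% of all probe sets. Aars2 and Mars2 had only 3 distinct values each among 7 libraries.

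For 13 amino acids both a cytosolic and a mitochondrial enzyme were measured, with Farsa and Farsb averaged. The log2 ratio of mitochondrial to cytosolic value, taken within each library, was higher in transgenic fat for 11 amino acids and lower for 2, phenylalanine and methionine. With wild type replicate 2 as control, a comparison added after the data were seen, it was higher for 9 and lower for 4. Groups of the ratio did not overlap for 3, isoleucine, leucine and tryptophan, each on the higher side. Iars, Lars2 and Wars already had groups without overlap on their own, so these ratios are no separate observations. A share over all probe sets has no counterpart for such ratios. For leucine, Lars read 7.13, 7.20, 7.19 and 7.17 in wild type and 7.17 in all 3 transgenic libraries. The Lars2 to Lars ratio differed by 0.31, from -2.06 ± 0.12 (SD, n = 4) to -1.74 ± 0.12 (SD, n = 3), with an exact permutation p = 0.0571. The leucine ratio differed by 0.16 with wild type replicate 2 as control.

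The Iars2 to Iars ratio differed by 0.65, from 0.03 ± 0.35 (SD, n = 4) to 0.68 ± 0.15 (SD, n = 3), with an exact permutation p = 0.0571. With wild type replicate 2 as control it differed by 0.22. The Wars2 to Wars ratio differed by 1.57, mostly through Wars, with the same exact permutation p of 0.0571, while Wars2 itself read 4.53, 4.49, 4.53 and 4.14 in wild type and 4.53, 4.53 and 4.67 in transgenic fat. The tryptophan ratio differed by 0.23 with wild type replicate 2 as control. For threonine the groups of the ratio overlapped (difference 0.23), and Tars read 6.39, 6.39, 6.45 and 6.24 in wild type and 6.14, 6.38 and 6.39 in transgenic fat. Over the 13 ratios the smallest Benjamini-Hochberg adjusted exact permutation p was 0.159, so none passed. As the exact permutation p of a ratio cannot fall below 0.0286, no ratio could pass this adjustment on its own.

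**Figure D4:**
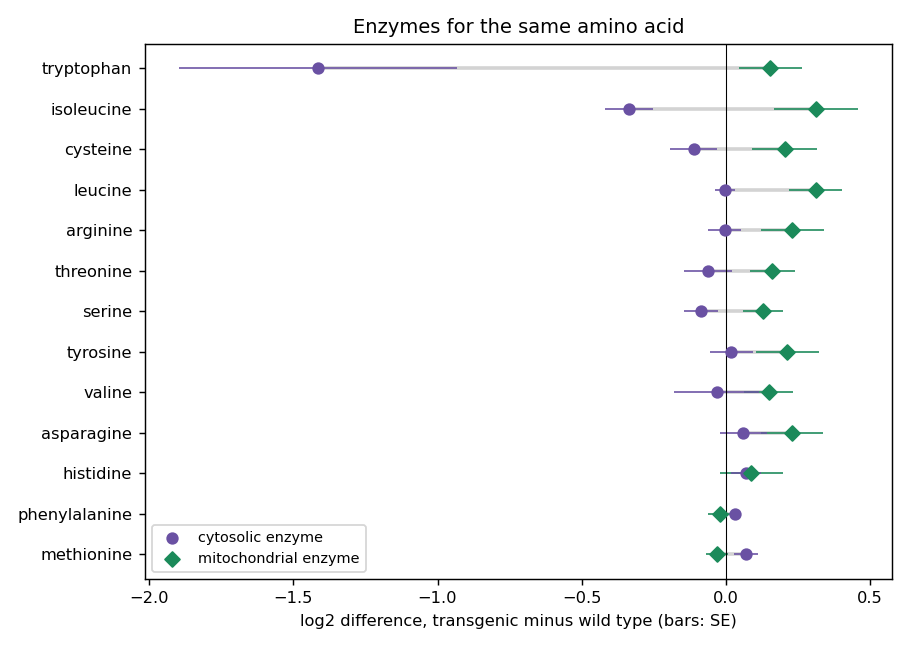
Log2 difference, transgenic minus wild type, of the cytosolic and the mitochondrial enzyme for each of 13 amino acids, with bars for the SE of the fit (none for the mean of Farsa and Farsb). The mitochondrial point lies to the right of the cytosolic point for 11 amino acids.

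The SE of the difference had a median of 0.10 over the mitochondrial and 0.06 over the cytosolic members. Among the libraries their mean went with that of adipocyte markers, which was 10.40, 11.11, 10.65 and 10.80 in wild type replicates 1 to 4 and 11.13, 11.08 and 11.21 in transgenic replicates 1 to 3. Wild type replicate 1 was lowest and transgenic replicate 3 highest in both. All 9 adipocyte markers had a higher transgenic mean, against 53.0% of all probe sets. Their median difference was 0.41, and 0 passed (6 at an unadjusted p under 0.05, against 4.82% of all probe sets). With wild type replicate 2 as control 7 of the 9 were higher, against 51.6% of all probe sets, and the median was 0.04. Their part in the mitochondrial values was not tested.

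Genes that work with the mitochondrial enzymes lay on the same side. Of 18 factors of mitochondrial tRNA amidation, formylation, modification and translation 18 had a higher transgenic mean, against 53.0% of all probe sets. Their median difference was 0.12, and 0 passed an adjusted p of 0.05 with limma. At an unadjusted p under 0.05 limma gave 1 of the 18 as higher, against 4.82% of all probe sets. Tsfm, a mitochondrial elongation factor, read 6.11, 6.22, 5.94 and 6.22 in wild type and 6.42, 6.22 and 6.52 in transgenic fat, a difference of 0.26 (SE 0.10). Gfm1, the mitochondrial elongation factor G, read 6.73, 7.14, 6.86 and 7.14 in wild type and 7.12, 7.23 and 7.43 in transgenic fat, a difference of 0.29 (SE 0.13). Wild type replicate 1 was low or next to lowest in both, and the groups overlapped. Against wild type replicate 2 alone the list had 13 of 18 genes higher and a median of 0.04. Over all probe sets that comparison gave 51.6% higher and a median of 0.004.

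Regulators of mitochondrial biogenesis had 6 of 10 genes higher, against 53.0% of all probe sets. Their median difference was 0.09, with 0 passing (0 at an unadjusted p under 0.05). Against wild type replicate 2 alone the balance turned, to 4 higher and 6 lower with a median of -0.03. In that comparison 51.6% of all probe sets were higher. Tfb1m, a methyltransferase of mitochondrial ribosomal RNA, differed by 0.28 (SE 0.13), and transgenic replicate 2, at 5.36, lay apart from the rest at 4.63 to 4.92. Polrmt, the mitochondrial RNA polymerase, read 5.48 to 5.70 in wild type and 5.71 to 5.83 in transgenic fat, a difference of 0.13 (SE 0.07) with groups that did not overlap. Nrf1, whose motif was searched above, differed by -0.09 (SE 0.05).

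Genes that work with the cytosolic enzymes lay close to 0. Partners of the synthetases and enzymes of tRNA quality control had 5 of 8 genes higher, against 53.0% of all probe sets. Their median was 0.03, with 0 passing (0 at an unadjusted p under 0.05). Among them Aimp1, a scaffold of the multi-synthetase complex, differed by -0.06 and Dtd2, a deacylase of mischarged tRNA, by 0.08. Cytosolic elongation factors had 3 of 7 genes higher, against 53.0% of all probe sets, a median of -0.06 and 0 passing (0 at an unadjusted p under 0.05). Eef1d and Eef1b2, exchange factors for the protein that brings charged tRNA to the ribosome, differed by -0.10 and -0.08.

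Amino acid supply genes and targets of ATF4, the factor named above, were divided. The transgenic mean was higher for 15 of the 29 and lower for 14, against 53.0% and 46.4% of all probe sets. Their median was 0.01 and 0 passed (4 higher and 4 lower at an unadjusted p under 0.05, against 4.82% and 3.12% of all probe sets). The groups did not overlap for 3 on the higher and 3 on the lower side, against 3.38% and 2.44%. Slc3a2, the heavy chain of large neutral amino acid transporters, read 9.42 to 9.61 in wild type and 9.22 to 9.27 in transgenic fat, a difference of -0.27 (SE 0.06). Its light chain partner Slc7a5, which carries leucine, isoleucine and tryptophan, read 5.70 to 6.201 and 5.31 to 5.44, a difference of -0.51 (SE 0.13). Shmt2, a mitochondrial serine hydroxymethyltransferase, read 6.201, 5.63, 6.39 and 6.61 in wild type and 5.13, 5.28 and 5.204 in transgenic fat, a difference of -1.002 (SE 0.22). Wild type replicate 2 was again the control nearest to the transgenic libraries. Psat1, an enzyme of serine synthesis, read 7.77 to 8.32 in wild type and 8.47 to 8.66 in transgenic fat, a difference of 0.49 (SE 0.13). Its highest wild type value, 8.32, was that of replicate 2. The others without overlap on the higher side were Eif4ebp1 and Psph, with differences of 0.40 (SE 0.14) and 0.19 (SE 0.08). Against wild type replicate 2 alone the list had 15 genes higher and 14 lower and a median of 0.01, where 51.6% of all probe sets were higher. Atf4 itself differed by -0.10.

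The 4 cytosolic members with the ATF4 motif shown above were not alike in their values. Their differences were 0.07 for Gars, -0.34 for Iars, -0.06 for Tars and 0.02 for Yars, and groups overlapped for all but Iars.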

How the data were processed

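Values came from the authors' deposited table of log2 expression, made with RMA per the submitters' processing notes; no source used here gives its version, probe set definition or filters. RMA brings arrays to a common distribution, so a shift of all genes would not be seen. Array medians ran from 3.99 to 4.04. Of 35556 probe sets, 21789 have exactly 1 gene symbol in the platform annotation, whose names can be old, and entered the fit. All 7 columns matched samples by label.

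Transgenic minus wild type differences were fitted with limma 3.58.1 in R 4.3.3 (lmFit, eBayes, two-sided, genotype only), with p-values adjusted by Benjamini-Hochberg at 0.05. Single values had an exact two-sided permutation test over 35 splits. A class value is the mean log2 value of its members, given without a test. The fit was first tested on simulated data. Figures used Python 3.11.15 and matplotlib 3.10.9.

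Members, lists and motifs were chosen with earlier results of these data known. One motif searched is not reported here. Given in full were members with groups that do not overlap, the 3 highest and 3 lowest of each class and the counterparts of the first; of each pathway list, the 2 of smallest p and, up to 4, those without overlap. Marker lists for macrophages, endothelium, progenitors and lymphocytes had transgenic minus wild type means of -0.23, 0.19, 0.02 and -0.01. Against wild type replicate 2 alone their median differences were -0.14, 0.06, -0.31 and 0.06. In that comparison 0 of 7 progenitor markers were higher, against 51.6% of all probe sets. Alternatives were a replicate block, quantile normalization again, a common median, leaving out the dimmest 25%, every row, 1 probe set per gene, a trend with robust prior, array weights, leaving out each library, wild type replicate 2 as the only control, averaging rows of a gene, an adjusted p of 0.1 and the cytosolic class without Gars and Kars.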

Additional observations from a re-analysis of the deposited data

Results flagged for a closer look

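In 6 of the 34 members 1 wild type library stood apart from the other 3, by a gap that exceeds Dixon's critical share of the range. Chance gives about 1 in 20 for normal values without ties. As 24 of the 34 members had equal values between libraries, the count of 6 cannot be read against that rate. Iars read 7.15 in wild type replicate 1, against 6.85 to 6.89 in the others. Rars2 read 5.81 in wild type replicate 1, against 6.05 in the other 3. Tars2 read 6.19 in wild type replicate 2, against 6.38 to 6.41. Cars2 read 4.63 in wild type replicate 4, against 4.89 to 4.91, and Wars2 read 4.14 in the same library, against 4.49 to 4.53. Mars2 read 5.05 in wild type replicate 2, against 5.04 in the others, a range of only 0.008. For Rars2 and Mars2 the other 3 values were equal to 7 decimals.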

How the results depend on the processing

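Counts of members past an adjusted p of 0.05 were 0 in both classes and directions under every alternative run. A threshold of 0.1, applied to all 7 libraries with the other settings kept, also gave 0. Wars had a limma adjusted p of 0.0578 without wild type replicate 2. Over all probe sets, under these same alternatives, the count stayed at 0 in each direction except without wild type replicate 2 (leaving out a library gave 0 to 7 higher and 0 to 84 lower). A replicate block gave medians of -0.003 (cytosolic) and 0.15 (mitochondrial) and a class difference of -0.24. Only wild type has a replicate 4, so these equal the values without that library and are no separate check. Deviations of same-numbered samples correlated at -0.14, -0.09 and 0.06. So few correlations cannot show whether the numbers pair the samples. Against wild type replicate 2 alone the mitochondrial median was 0.087 and the class difference -0.058. Leaving out each library gave medians of -0.008 to 0.02 (cytosolic) and 0.13 to 0.20 (mitochondrial) and a class difference of -0.32 to -0.21. Without Wars and Iars, chosen after seeing the data, the cytosolic median was 0.01 and the class difference -0.15.

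Members without overlap on the higher side numbered 8 mitochondrial after quantile normalization again (9.26% of all probe sets). After a common median they numbered 10 of 16 mitochondrial and 3 of 18 cytosolic (20.1% of all probe sets). Against wild type replicate 2 alone they numbered 5 mitochondrial and 8 cytosolic, with 1 and 4 on the lower side (24.0% of all probe sets higher and 20.8% lower). Leaving out each library gave 2 to 5 mitochondrial and 0 to 1 cytosolic on the higher side, and 2 to 3 cytosolic on the lower, against 4.06% to 8.23% and 2.68% to 6.21% of all probe sets. At an unadjusted p under 0.05, limma gave 1050 probe sets higher and 679 lower, and 1900 and 446 after a common median.

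Signs of members near 0 turned. A common median gave Vars 0.0089, Kars 0.026, Qars 0.031, Rars 0.038, Lars 0.038, Mars2 0.0093 and Fars2 0.020. Quantile normalization again gave Farsb -0.00082 and Mars2 0.0084. The replicate block gave Vars 0.053, Yars -0.021 and Fars2 0.0030. Array weights gave Nars -0.029 and Fars2 0.011. The comparison with wild type replicate 2 alone gave Cars 0.0079, Vars 0.35, Kars 0.076, Qars 0.0080, Rars 0.12, Farsb -0.011, Eprs -0.042, Hars2 -0.056 and Iars2 -0.033. Leaving out each library gave Tars -0.11 to 0.020, Vars -0.16 to 0.053, Kars -0.046 to 0.022, Qars -0.024 to 0.019, Rars -0.044 to 0.020, Lars -0.016 to 0.0064, Farsb -0.0095 to 0.032, Yars -0.037 to 0.060, Fars2 -0.039 to 0.0030 and Hars2 -0.025 to 0.17. The causes were not tested.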
